A study of Neurospora crassa with 42 samples.

Results

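A group of 18 genes of the filamentous fungus Neurospora crassa was lower in starved Δclr-3 mycelium than in starved wild type at 4 h and higher at 10 h. They were picked from 9746 genes by their levels in those samples alone, so the differences that picked them are given as a description. For each gene and group, the median over 3 libraries of log2(FPKM + 1) was taken. A gene belonged if Δclr-3 minus wild type was at most -1 at 4 h and at least 0.3 at 10 h, and if its mean in starved wild type at 4 h was at least 5 FPKM (fragment counts scaled to transcript length and to the size of the library). Of 7075 genes at or above 5 FPKM, 628 met the 4 h limit and 20 of these also met the 10 h limit. The rule leaves 2 of the 20 out by name. Among the 628 genes the median 10 h difference was -0.52, and 54 of the 628 lay above 0 at 10 h.

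The series holds 42 libraries in 14 groups, each of 3 biological replicates. Every culture was started from conidia, grew for 16 h in minimal medium with 2% sucrose at 25 °C in constant light, and was then moved to medium with no carbon source (starved) or with 2% Avicel, a microcrystalline cellulose. The 12 libraries that chose the genes are starved Δclr-3 and starved wild type at 4 h, and both again at 10 h. At 10 h starved strains that lack clr-3 and another gene (Δcre-1Δclr-3, Δos-1Δclr-3, Δos-2Δclr-3) were sequenced beside the single mutants Δcre-1, Δos-1 and Δos-2. At 4 h there were also Pccg1-clr-2, a strain with clr-2 under the ccg-1 promoter, on starvation medium, and Δclr-1, Δclr-2 and wild type on Avicel. The labels do not say how many isolates stand for a mutant strain.

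CLR-1 and CLR-2 are transcription factors that switch on cellulase genes when cellulose is present, and CLR-3 holds that response back in its absence. CRE-1 is the carbon catabolite repressor, and OS-1 and OS-2 are the histidine kinase and the mitogen-activated protein kinase of the osmosensing cascade. Carbon starvation of Neurospora mycelium is also known to turn on genes of asexual development.

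The clr-3 gene lay between 0.0848 and 1.42 FPKM in the libraries of the 5 groups that lack it, and between 21.5 and 435 FPKM in the 9 groups that keep it. Depth implied by the FPKM bounds was 5.17 to 41.2 M (mega) fragments per library at 4 h (median 17.0 M) and 16.2 to 24.7 M at 10 h (median 19.7 M). The 4 h libraries were less alike, apart from those of starved Δclr-3. Wild type on Avicel replicate 1, with 5.17 M fragments, correlated at 0.896 with its own group on the log2 scale, and starved wild type replicate 2 at 4 h, with 39.2 M, at 0.942. At 10 h the lowest such value was 0.991. Starved Δclr-3 at 4 h was near that, at 0.990, 0.991 and 0.992, against 0.955, 0.942 and 0.959 in starved wild type. The 4 h contrast of the rule thus sets a close group against a scattered one.

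Only 3 of the 18 genes have a symbol in the reference annotation. They are nit-6 (NCU04720), which encodes the nitrite reductase that makes ammonium from nitrite, al-1 (NCU00552), which encodes the phytoene desaturase of carotenoid synthesis, and ccg-13 (NCU08907), a clock-controlled gene. The other 15 carry only a locus number in that annotation, so no name or role is given to them here.

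In starved mycelium at 4 h, nit-6 had 19.2, 34.0 and 20.3 FPKM in Δclr-3, against 43.5, 58.5 and 75.5 FPKM in wild type. At 10 h it had 107, 109 and 125 FPKM in Δclr-3, against 63.1, 65.9 and 72.1 FPKM in wild type. The Δclr-3 libraries were thus all below those of wild type at the first time and all above them at the second. Between the medians, nit-6 differed by -1.48 at 4 h and by 0.72 at 10 h (log2, Δclr-3 minus wild type here and below).

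NCU10107 had the lowest 4 h difference, -2.16, with 11.8, 8.91 and 9.33 FPKM in Δclr-3 and 45.1, 15.8 and 59.6 FPKM in wild type. At 10 h it differed by 1.29, with 38.8, 57.9 and 47.8 FPKM in Δclr-3 and 19.5, 19.0 and 13.7 FPKM in wild type. NCU04400, its neighbour on the chromosome, differed by -1.35 at 4 h, with 6.44, 5.29 and 4.61 FPKM in Δclr-3 and 15.1, 7.04 and 25.8 FPKM in wild type. Both genes were lower in all Δclr-3 libraries at 4 h, and the wild type library with the lowest value was the same, replicate 2. NCU04400 differed by 1.36 at 10 h, with 16.0, 26.5 and 24.1 FPKM in Δclr-3 and 8.74, 8.998 and 6.61 FPKM in wild type.

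NCU03154 did not overlap between the strains at either time. It had 2.63, 2.94 and 1.57 FPKM in Δclr-3 at 4 h, against 14.7, 12.6 and 10.7 FPKM in wild type, a difference of -1.90. At 10 h its difference was 0.47, with 13.7, 12.7 and 12.9 FPKM in Δclr-3 and 8.98, 8.87 and 10.0 FPKM in wild type. Its level at 10 h minus that at 4 h was 1.93 in Δclr-3 and -0.44 in wild type. NCU07334 did not overlap either. At 4 h it had 8.70, 11.7 and 8.83 FPKM in Δclr-3 and 30.5, 53.2 and 28.4 FPKM in wild type, and at 10 h 55.6, 51.5 and 57.2 FPKM in Δclr-3 and 39.0, 38.1 and 39.7 FPKM in wild type.

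For 4 of the 18 genes the 4 h groups overlapped. The al-1 gene had 264, 176 and 206 FPKM in Δclr-3 and 82.4, 423 and 735 FPKM in wild type, so that 1 wild type library lay below all of Δclr-3. Its 4 h difference of -1.04 became 0.14 without starved wild type replicate 3. NCU05755 had 31.4, 33.0 and 23.1 FPKM in Δclr-3 and 29.0, 409 and 116 FPKM in wild type. NCU05134 had 15.2, 14.7 and 12.4 FPKM in Δclr-3 and 14.8, 154 and 37.7 FPKM in wild type. In both of these genes wild type replicate 2 was the highest library and replicate 1 lay among the Δclr-3 values. The fourth was NCU16017, a gene of the mitochondrial chromosome, with 10.4, 8.20 and 8.43 FPKM in Δclr-3 and 4.93, 28.4 and 18.5 FPKM in wild type.

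The median of the 18 differences was -1.39 at 4 h, against -0.18 over 8294 genes, and 0.58 at 10 h, against -0.30 over 8014 genes. At 4 h all 18 were at least 1 lower, as the rule requires, which 8.52% of all genes were, and 14 of the 18 had all 3 Δclr-3 libraries below all 3 of wild type, which 38.9% of all genes did. At 10 h, 15 of the 18 had all Δclr-3 libraries above wild type, which 10.3% of all genes did, and 3 were at least 1 higher, as were 2.89% of all genes. The exceptions at 10 h were NCU16323, ccg-13 and NCU16017. Both shares are set by the choice of the genes. With single libraries of these groups left out in turn, 7 of the 18 met the rule in every case. Without starved wild type replicate 3 at 4 h, 11 of the 18 did.

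The other genes are given as means ± SD over 3 libraries. At 4 h NCU09267 had 21.6 ± 6.02 FPKM in Δclr-3 and 66.1 ± 4.63 FPKM in wild type, NCU16323 had 4.38 ± 0.962 and 15.2 ± 4.70 FPKM, and NCU01400 had 14.7 ± 2.85 and 39.9 ± 6.30 FPKM. At 10 h NCU01400 had 71.8 ± 1.80 FPKM in Δclr-3 and 45.7 ± 2.32 FPKM in wild type. At 10 h NCU09267 had 40.2 ± 2.29 FPKM in Δclr-3 and 27.996 ± 1.51 FPKM in wild type, and NCU16323 had 19.1 ± 4.41 FPKM in Δclr-3 and 12.6 ± 4.99 FPKM in wild type. The means of all 3 were thus ordered oppositely at the 2 times. The ccg-13 gene had 67.1 ± 22.1 FPKM in Δclr-3 at 4 h and 189 ± 65.5 FPKM in wild type, and 49.8 ± 18.1 and 30.3 ± 9.41 FPKM at 10 h. Its mean was lower at the later time in both strains, as were those of NCU03297, NCU01905, NCU07036, NCU16017 and al-1.

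In the last 5 genes, the 4 h means were 15.1 ± 1.81 FPKM in Δclr-3 and 32.3 ± 4.28 FPKM in wild type for NCU16363, and 22.9 ± 0.651 and 48.6 ± 12.8 FPKM for NCU03297. They were 10.1 ± 1.10 FPKM in Δclr-3 and 24.1 ± 11.1 FPKM in wild type for NCU01905, 13.5 ± 1.69 and 30.8 ± 10.5 FPKM for NCU07036, and 46.3 ± 7.68 and 86.2 ± 17.4 FPKM for NCU03426. The SD was larger in wild type than in Δclr-3 for all 5. NCU16363 had the highest 10 h difference, 1.41, with 38.2 ± 10.7 FPKM in Δclr-3 and 16.5 ± 3.06 FPKM in wild type. NCU03297 had 17.4 ± 0.839 FPKM in Δclr-3 and 8.91 ± 0.407 FPKM in wild type at 10 h, a difference of 0.90. NCU01905 at 7.30 ± 0.489 and 5.42 ± 0.255 FPKM, and NCU07036 at 5.44 ± 0.536 and 3.50 ± 0.800 FPKM, were low in both strains by then. NCU03426 had 140.4 ± 11.0 FPKM in Δclr-3 at 10 h and 112 ± 6.13 FPKM in wild type, the lowest 10 h difference of the 18 at 0.32.

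**Figure D1:**
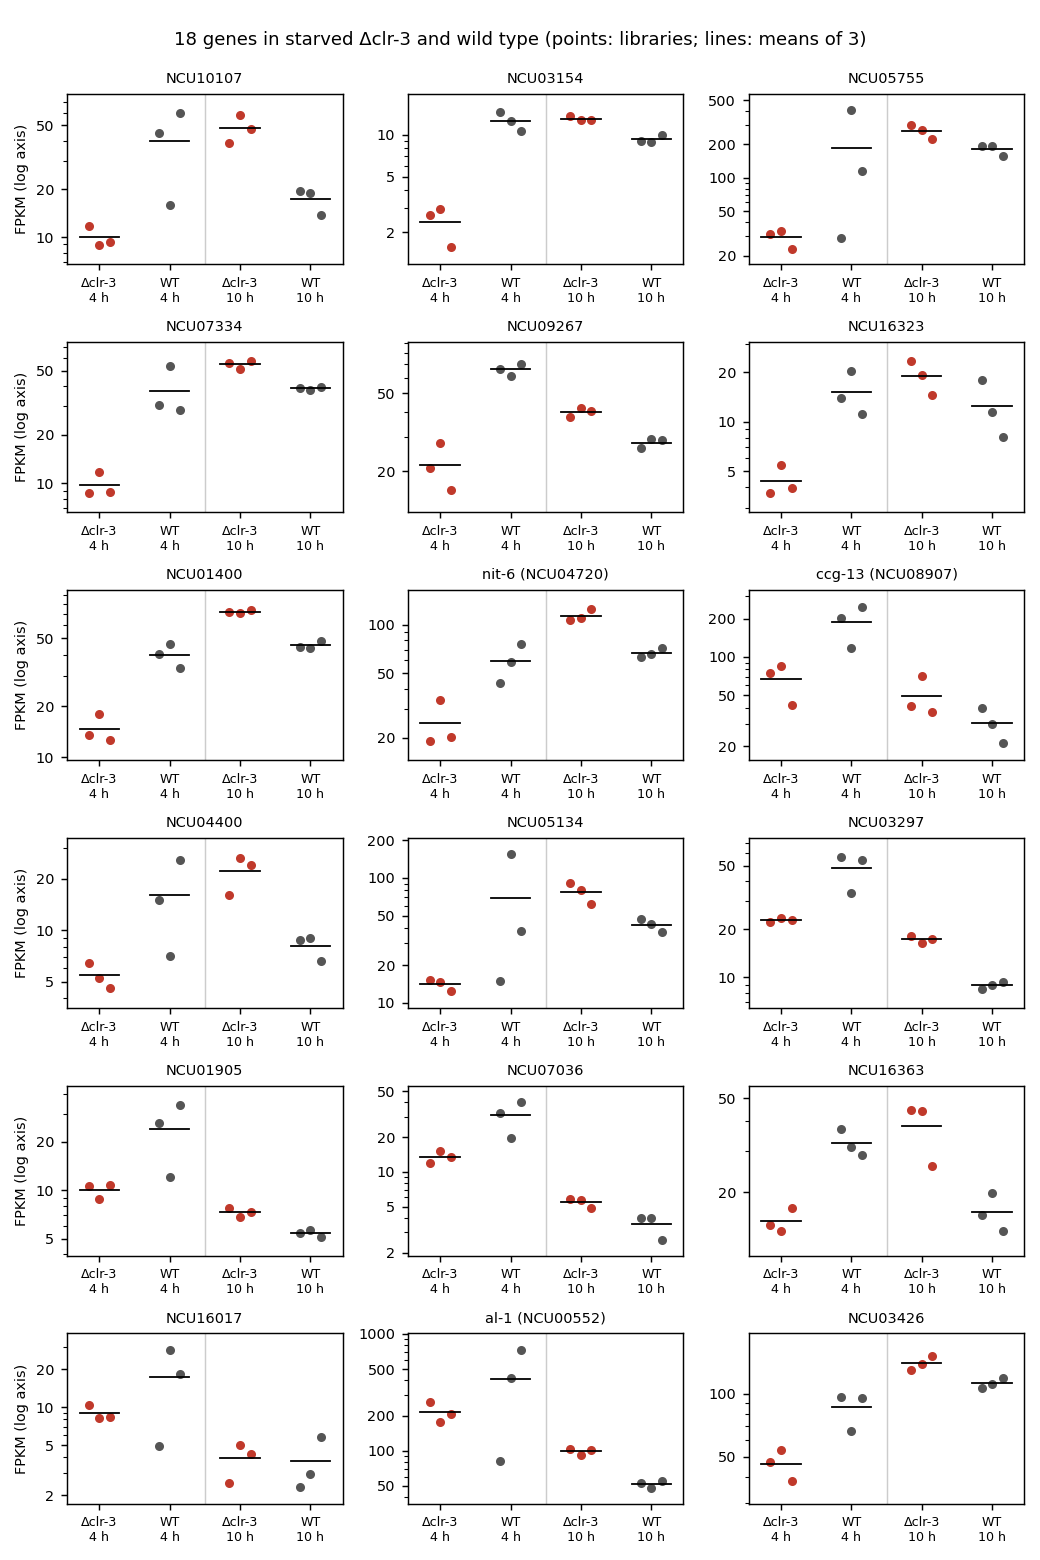
Level of each of the 18 genes in starved Δclr-3 and wild type at 4 h and 10 h, in FPKM on a log axis; points are libraries and lines are means of 3. Δclr-3 lies below wild type at 4 h and above it at 10 h in the medians, and the 4 h groups overlap for NCU05755, NCU05134, NCU16017 and al-1.

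Over time the genes split. Between 4 h and 10 h, 11 of the 18 were at least 1 higher in Δclr-3 at the later time, as were 8.12% of all genes, and 2 were at least 1 lower (al-1 at -1.001 and NCU07036 at -1.10), as were 12.2% of all genes. In wild type 0 were at least 1 higher at 10 h, as were 8.21% of all genes, and 8 were at least 1 lower, as were 11.3% of all genes. The largest of these wild type differences were -2.97 for al-1, -2.74 for NCU07036, -2.70 for ccg-13 and -2.49 for NCU03297. In NCU05755, NCU07334, NCU05134, nit-6, NCU01400 and NCU10107 the difference over time in Δclr-3 lay between 2.24 and 3.07, against -1.21 to 0.73 in wild type. These contrasts share libraries with the rule and were not tested. The rule itself makes the difference over time larger in Δclr-3 than in wild type for each of the 18. The split between the strains is thus in part set by the choice of the genes.

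Near the limits, NCU03426 was just inside at 4 h with -1.003, followed by al-1 (-1.04) and NCU16017 (-1.05), and NCU05133 (-0.998), NCU04816 (-0.957) and NCU00248 (-0.934) were just outside. NCU05133 is the chromosomal neighbour of the member NCU05134. At 10 h NCU03426 (0.32), NCU01905 (0.37) and NCU16017 (0.40) were just inside, and NCU07266 (0.287), NCU04036 (0.278) and NCU04261 (0.267) just outside. By level, the lowest means inside were 12.6 FPKM for NCU03154, 15.2 for NCU16323 and 16.0 for NCU04400. NCU09612 at 2.59 FPKM, NCU07091 at 2.36 and NCU16832 at 0.867 met both differences but not the level.

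On build NC12 the genes are spread over the chromosomes, with 7 on I, 4 on IV, 2 on V, 2 on VI, 1 on II, 1 on VII, 1 on MT and 0 on III. The only adjacent pair was NCU04400 (IV:3486723-3488507) and NCU10107 (IV:3489078-3489745), with 570 bases between them. The named genes lie at VI:534862-539145 (nit-6), I:8029857-8032395 (al-1) and V:678921-680033 (ccg-13). Further loci are NCU05755 at VII:3720774-3721718, NCU05134 at VI:3612920-3613899, NCU07334 at IV:4334168-4337549, NCU03297 at I:5221686-5224332, NCU09267 at I:9351481-9354965, NCU16323 at I:980957-982105, NCU01905 at I:2079813-2081745 and NCU16363 at I:2630647-2631219. The annotation places another gene across part of NCU03154 (I:4744044-4746395), NCU01400 (V:3903539-3905059), NCU07036 (IV:4988986-4989741), NCU03426 (II:755125-759094) and NCU16017 (MT, from base 40904). The labels do not state whether the libraries keep strand, so the values of these 5 are uncertain. The median span was 1859 bases for the 18 genes and 2126 bases for all genes of the annotation.

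The effect of clr-3 loss was then tested at 10 h in strains that the rule had not used. Loss of clr-3 in the Δos-1, Δos-2 and Δcre-1 backgrounds raised 8 of the 18 genes in at least 1 background, as it did 5.82% of 8010 genes, and lowered 1, NCU16363, against 14.9% of all genes. Of the 18, nit-6 rose in all 3, as did 0.649% of all genes, and it and NCU03297 rose in at least 2, as did 1.82%. All 18 genes were measured above the 1 FPKM minimum. A call needed a Benjamini-Hochberg adjusted p under 0.05 in limma, over all genes, and a fold change of at least 1 on the log2(FPKM + 1) scale; ± after a fold change is the standard error.

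In the Δos-1 background, 3 of 18 genes rose and 0 fell, against 2.17% of 8012 genes that rose and 0.836% that fell. The nit-6 gene had 93.5, 101 and 111 FPKM in Δos-1Δclr-3, against 46.4, 47.6 and 53.5 FPKM in Δos-1, a change of 1.04 ± 0.12 (limma adjusted p = 1.16e-06). NCU03297 had 18.6, 27.1 and 21.6 FPKM in Δos-1Δclr-3, against 7.52, 8.37 and 8.67 FPKM in Δos-1, a change of 1.34 ± 0.14 (adjusted p = 2.26e-07). The al-1 gene had 146, 227 and 152 FPKM in Δos-1Δclr-3, against 68.1, 80.3 and 93.6 FPKM in Δos-1, a change of 1.09 ± 0.16 (adjusted p = 1.26e-05). In each of these 3 genes all Δos-1Δclr-3 libraries were above all Δos-1 libraries. Without Δos-1 replicate 1 only NCU03297 was called, with nit-6 and al-1 at 0.996 and 0.98, and the call was lost without Δos-1Δclr-3 replicate 3 for nit-6 (0.97) and without its replicate 2 for al-1 (0.89). In total 16 of the 18 fold changes were above 0, against 25.2% of all genes, with NCU07036 and NCU16017 below.

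In the Δos-2 background, 6 of 18 genes rose and 0 fell, against 3.06% of all genes that rose and 4.57% that fell. NCU04400 had 13.7, 13.3 and 10.8 FPKM in Δos-2Δclr-3, against 1.96, 2.51 and 1.84 FPKM in Δos-2, a change of 2.13 ± 0.17 (limma adjusted p = 1.15e-09). Its neighbour NCU10107 had 24.9, 36.0 and 24.6 FPKM in Δos-2Δclr-3, against 5.75, 6.47 and 5.34 FPKM in Δos-2, a change of 2.09 ± 0.21 (adjusted p = 1.91e-08). NCU05134 had 100.0, 72.4 and 94.9 FPKM in Δos-2Δclr-3, against 22.0, 22.0 and 20.02 FPKM in Δos-2, a change of 2.00 ± 0.16 (adjusted p = 7.48e-10). These 3 showed the largest changes of the 18 genes, and in each all Δos-2Δclr-3 libraries were above all Δos-2 libraries. NCU05755 reached 945, 761 and 901 FPKM in Δos-2Δclr-3, against 350.2, 367 and 333 FPKM in Δos-2, a change of 1.30 ± 0.12. The nit-6 gene had 287, 258 and 316 FPKM in Δos-2Δclr-3, against 108, 123 and 132 FPKM in Δos-2, a change of 1.24 ± 0.12. NCU07334 had 134, 106 and 118 FPKM in Δos-2Δclr-3, against 51.6, 53.6 and 55.4 FPKM in Δos-2, a change of 1.13 ± 0.09. All 6 calls held in every alternative that was run. The remaining 12 genes lay between -0.84 for NCU01400 and 0.55 for NCU03154, and in total 11 of 18 were above 0, against 15.9% of all genes.

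In the Δcre-1 background, 2 of 18 genes rose and 1 fell, against 3.07% of all genes that rose and 11.1% that fell. The nit-6 gene had 423, 399.9 and 446 FPKM in Δcre-1Δclr-3, against 83.9, 102 and 138 FPKM in Δcre-1, a change of 1.99 ± 0.12 (limma adjusted p = 1.2e-11). That was its highest level in any group of the series. NCU03297 had 35.5, 44.4 and 37.9 FPKM in Δcre-1Δclr-3, against 12.9, 18.6 and 12.7 FPKM in Δcre-1, a change of 1.37 ± 0.14 (adjusted p = 1.13e-08). NCU16363 had 9.94, 6.91 and 5.62 FPKM in Δcre-1Δclr-3, against 18.2, 14.4 and 19.2 FPKM in Δcre-1, a change of -1.13 ± 0.19 (adjusted p = 1.76e-05). This call was lost when the libraries were rescaled by median ratio (-0.63) and without Δcre-1Δclr-3 replicate 3 (-0.96).

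The fitted changes are on the FPKM scale as deposited, on which the median over all genes was below 0 in each background: -0.18 in Δos-1, -0.38 in Δos-2 and -0.45 in Δcre-1. Over all genes, 174 rose and 67 fell in Δos-1, 245 and 366 in Δos-2, and 246 and 891 in Δcre-1. With the libraries rescaled by median ratio these became 232 and 23, 380 and 124, and 500 and 148. The counts of the 18 genes stayed at 3 in Δos-1 and 6 in Δos-2, and in Δcre-1 they became 5 that rose and 0 that fell, with al-1 (1.33), NCU07334 (1.35) and NCU03426 (1.07) added.

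**Figure D2:**
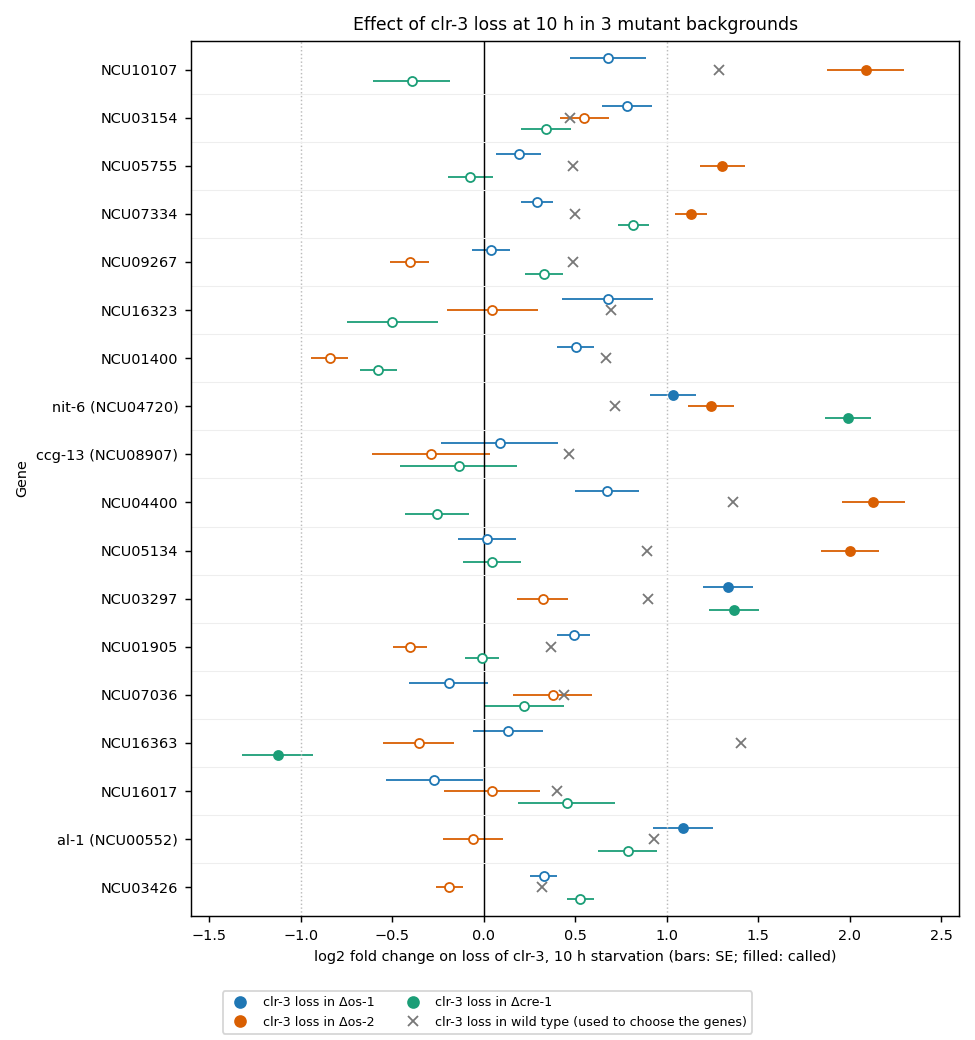
Change of each gene on loss of clr-3 at 10 h, as log2 fold change with its standard error, in Δos-1 (blue), Δos-2 (orange) and Δcre-1 (green); filled points were called by limma, and grey crosses show the wild type background that chose the genes. Only nit-6 is filled in all 3 backgrounds; NCU04400, NCU10107 and NCU05134 reach 2.00 or more in Δos-2 alone.

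Whether the effect of clr-3 loss differed between the backgrounds was tested as a difference of differences over 12 libraries. For the neighbours NCU10107 and NCU04400 the effect in Δos-2 exceeded that in Δcre-1 by 2.48 ± 0.30 and 2.39 ± 0.25 (limma adjusted p = 9.24e-07 and 1.34e-07). NCU05134 exceeded it by 1.96 ± 0.22 and NCU05755 by 1.38 ± 0.17, and NCU03297 fell short by 1.05 (-1.05 ± 0.20). In total 4 genes were called higher and 1 lower, against 4.49% and 3.58% of 8011 genes. The effect in Δos-1 minus that in Δos-2 was called lower for NCU05134 (-1.98 ± 0.22), NCU04400 (-1.45 ± 0.25), NCU10107 (-1.41 ± 0.30) and NCU05755 (-1.11 ± 0.17), and higher for NCU01400 (1.35 ± 0.14), al-1 (1.15 ± 0.23) and NCU03297 (1.01 ± 0.20), 4 and 3 genes against 3% and 5.54% of all genes. Under median-ratio rescaling the calls for al-1 and NCU03297 were lost. Between Δos-1 and Δcre-1, 4 genes were called higher and 0 lower, against 4.12% and 2.22% of all genes: NCU16363 (1.26 ± 0.27), NCU16323 (1.18 ± 0.35), NCU01400 (1.08 ± 0.14) and NCU10107 (1.07 ± 0.30). All 4 of these were lost under median-ratio rescaling, where 2 other genes were called lower, nit-6 (-1.30) and NCU16017 (-1.01). Over all genes the splits of higher and lower calls for the 3 differences were 360 and 287, 444 and 240, and 330 and 178, and after rescaling 290 and 391, 305 and 327, and 129 and 318. For nit-6 the effect differed by -0.21 ± 0.18 between Δos-1 and Δos-2 (limma adjusted p = 0.346). It was smaller than in Δcre-1 by -0.75 ± 0.18 in Δos-2 (adjusted p = 0.00138) and by -0.96 ± 0.18 in Δos-1 (adjusted p = 0.000109). Both of these passed the limit on adjusted p and were not called, as they lay under the minimum of 1.

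Summed levels of markers of conidia and aerial hyphae, the structures of asexual development, differed in several of these comparisons. Such a sum follows its most abundant genes: the lowest marker, acon-3, averaged 2.84 FPKM in starved Δclr-3 at 4 h. The 12 markers, ccg-13 among them, summed to 29290.8 to 37441.8 FPKM in starved Δclr-3 at 4 h. In starved wild type at 4 h they summed to 52316.3 to 68664.1 FPKM. By the medians 4 of the 12 were at least 1 lower in Δclr-3 at 4 h, ccg-13 among them by the rule, as were 8.52% of all genes. At 10 h they summed to 18669.2 to 26163 FPKM in Δclr-3 and 22686 to 25264.2 FPKM in wild type, where 1 of 12 was at least 1 lower. In Δos-2Δclr-3 the sum was 11869.6 to 15872.6 FPKM, against 29469.9 to 30977.4 FPKM in Δos-2. There 5 of 12 fell and 1 rose, against 4.57% and 3.06% of all genes. It was 17460.2 to 19865.5 FPKM in Δcre-1Δclr-3, against 23496 to 29128.9 FPKM in Δcre-1 (2 fell, against 11.1% of all genes). In Δos-1Δclr-3 it was 30312.5 to 33739.2 FPKM, against 30037.5 to 36107.2 FPKM in Δos-1 (1 rose, against 2.17% of all genes). No marker was at 0 in all libraries of a group. Fewer cells of a type and less RNA per cell cannot be told apart in these bulk samples, and the part of such cells in the results was not tested.

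The single mutants, which all keep clr-3, were compared with one another. Δos-1 and Δos-2 differed most in ccg-13, with 1756, 2091 and 1584 FPKM in Δos-1 and 7.70, 3.08 and 2.14 FPKM in Δos-2, a change of 8.55 ± 0.32 (limma adjusted p = 9.67e-15). NCU05755 went the other way, with 22.7, 25.98 and 23.4 FPKM in Δos-1 and 350.2, 367 and 333 FPKM in Δos-2, a change of -3.81 ± 0.12 (adjusted p = 9.62e-16). Also lower in Δos-1 than in Δos-2 were NCU03297 (-2.07 ± 0.14), al-1 (-1.47 ± 0.16), nit-6 (-1.28 ± 0.12) and NCU03154 (-1.21 ± 0.14). Of the 18 genes 1 was called higher and 5 lower, against 5.24% and 3.83% of all genes (420 and 307 genes, or 323 and 370 after median-ratio rescaling, under which the 18 genes kept the counts 1 and 5).

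Δos-2 against Δcre-1 gave 3 genes higher and 6 lower, against 4.69% and 6.62% of all genes. NCU05755 was 2.26 ± 0.12 higher, al-1 1.48 ± 0.16 and NCU03297 1.31 ± 0.14. Lower were ccg-13 (-6.21 ± 0.32), NCU07036 (-1.91 ± 0.22), NCU04400 (-1.55 ± 0.17), NCU16323 (-1.40 ± 0.25), NCU01905 (-1.28 ± 0.09) and NCU05134 (-1.09 ± 0.16). Δos-1 against Δcre-1 gave 2 higher and 7 lower, against 2.73% and 3.26% of all genes. Higher were ccg-13 (2.34 ± 0.32) and NCU09267 (1.03 ± 0.11), the second not called after median-ratio rescaling (0.96). NCU07036 (-1.77 ± 0.22), NCU05134 (-1.73 ± 0.16), NCU05755 (-1.56 ± 0.12) and NCU04400 (-1.44 ± 0.17) were the lowest. The other lower calls were nit-6 (-1.09), NCU03154 (-1.08) and NCU10107 (-1.02). The call for nit-6 was lost without Δcre-1 replicate 3 (-0.90) and that for NCU09267 without Δcre-1 replicate 1 (0.84). That for NCU10107 was lost without Δos-1 replicate 1 (-0.99) or 3 (-0.99) or Δcre-1 replicate 1 (-0.91) or 3 (-0.96).

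The marker sums of these single mutants overlapped between Δos-1 and Δos-2, at 30037.5 to 36107.2 and 29469.9 to 30977.4 FPKM, against 23496 to 29128.9 FPKM in Δcre-1. Without ccg-13, itself among the 18 genes, the sums were 28281.2 to 34523.6 FPKM in Δos-1, 29466.8 to 30975.3 FPKM in Δos-2 and 23171.9 to 28858.6 FPKM in Δcre-1, so that Δos-1 overlapped with Δcre-1. Between Δos-1 and Δos-2, 2 of the 12 markers were higher and 2 lower, ccg-13 among the higher, against 5.24% and 3.83% of all genes. The level of ccg-13 was near that of the single mutant in each double mutant: 2191, 1691 and 1879.8 FPKM in Δos-1Δclr-3, 3.85, 2.74 and 2.40 FPKM in Δos-2Δclr-3, and 299.5, 451 and 247 FPKM in Δcre-1Δclr-3, against 270.4, 508 and 324 FPKM in Δcre-1. None of its 3 changes on clr-3 loss was called (0.09 ± 0.32, -0.29 ± 0.32 and -0.14 ± 0.32).

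**Figure D3:**
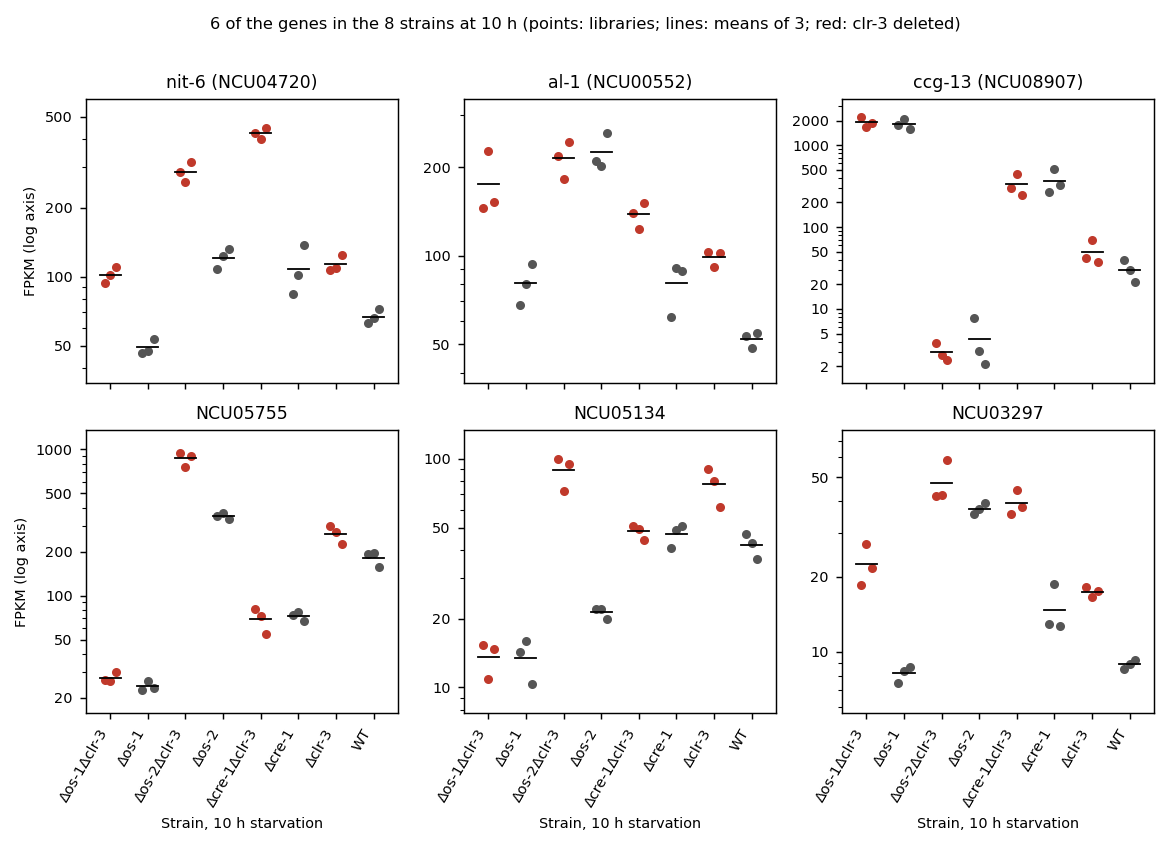
Level of nit-6, al-1, ccg-13, NCU05755, NCU05134 and NCU03297 in the 8 strains starved for 10 h, in FPKM on log axes; points are libraries, lines are means of 3 and red marks strains without clr-3. The ccg-13 gene spans 2.14 to 2191 FPKM and its double and single mutants overlap in each pair, while nit-6 is higher without clr-3 in every pair of strains. The pair of Δclr-3 and wild type was used to choose the genes.

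The neighbours NCU04400 and NCU10107 both had their highest group means on Avicel. On Avicel at 4 h NCU04400 had 182, 189.6 and 192 FPKM in Δclr-1, 270.4, 134 and 113 FPKM in Δclr-2, and 46.1, 371 and 393 FPKM in wild type. NCU10107 had 353, 289 and 296 FPKM in Δclr-1, 549.6, 214 and 193 FPKM in Δclr-2, and 94.1, 712 and 854 FPKM in wild type. In both genes wild type replicate 1, the library of least depth, was the lowest and the other two wild type libraries were the highest. All 9 Avicel libraries were above the starved wild type libraries given above, in both genes. Between the medians, wild type on Avicel minus starved wild type was 4.53 for NCU04400 and 3.95 for NCU10107. Pccg1-clr-2 on starvation medium had 21.7, 100.1 and 95.2 FPKM of NCU04400 and 47.2, 123 and 142 FPKM of NCU10107, and overlapped with starved wild type in both.

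**Figure D4:**
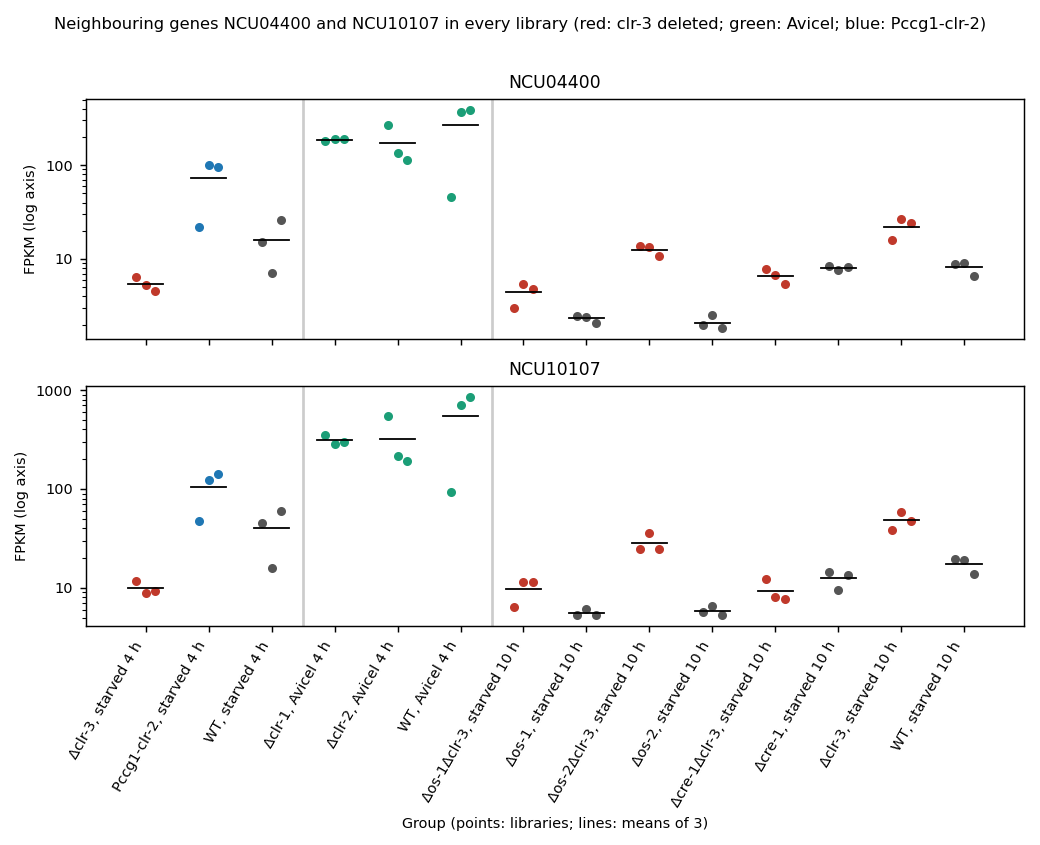
Level of the adjacent genes NCU04400 and NCU10107 in every library, in FPKM on log axes, for the 14 groups; points are libraries and lines are means of 3. Both are highest on Avicel and low in Δos-1 and Δos-2, and in Δos-2Δclr-3 all libraries lie above those of Δos-2.

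Over all 18 genes, wild type on Avicel minus starved wild type was at least 1 for 4 genes (NCU04400, NCU10107, NCU05134 at 2.86 and nit-6 at 1.64), as for 3.56% of all genes, and at most -1 for 7, as for 6.59%. The lowest were ccg-13 (-2.64) and al-1 (-2.02). Pccg1-clr-2 minus starved wild type was at least 1 for 2 genes, the neighbours, as for 3.62% of all genes, and at most -1 for 4, as for 8.87%. NCU05134 at -3.19 and NCU05755 at -2.77 were the lowest. NCU05134 had 6.11, 2.29 and 3.24 FPKM in Pccg1-clr-2, and NCU05755 had 19.4, 11.0 and 16.1 FPKM, below all starved wild type libraries in both genes. These values use rule libraries and were not tested.

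Loss of clr-1 or clr-2 on Avicel was tested against wild type on Avicel. The few calls do not set the 18 genes apart from all genes. A gene that was not called may still have changed, as the Avicel libraries were scattered. Δclr-1 had 1 gene higher and 1 lower, against 5.84% and 2.48% of 8267 genes. NCU07036 had 23.5, 32.5 and 34.0 FPKM in Δclr-1, against 8.99, 15.6 and 18.2 FPKM in wild type, a change of 1.06 ± 0.28 (limma adjusted p = 0.0123). NCU01400 had 17.4, 21.0 and 21.1 FPKM in Δclr-1, against 104, 24.6 and 27.0 FPKM in wild type, a change of -1.02 ± 0.38 (adjusted p = 0.0477) that rests on wild type replicate 1. Without that library it was -0.37, and with the replicate number as a block it was -1.02 with an adjusted p of 0.0511. Without wild type replicate 1 neither gene was called, with NCU07036 at 0.78.

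Δclr-2 had 0 genes higher and 1 lower, against 4.23% and 2.21% of all genes. NCU09267 had 35.7, 24.4 and 30.1 FPKM in Δclr-2, against 76.0, 55.0 and 58.1 FPKM in wild type, a change of -1.04 ± 0.31 (limma adjusted p = 0.0187). The count ranged from 0 to 4 as single libraries were left out, with 4 without wild type replicate 3, and 3 when wild type replicate 2 or the first Δclr-2 library was left out. It was 0 when wild type replicate 1 or either of Δclr-2 replicates 2 and 3 was left out. Under median-ratio rescaling both Δclr-1 calls were lost, NCU07036 at 0.72 and NCU01400 at an adjusted p of 0.0508, and another gene, NCU09267, was called lower (-1.08, limma adjusted p = 0.0436). In Δclr-2 nit-6 (-1.30) was then called lower beside NCU09267 (-1.44). By the same rescaling the splits over all genes moved to 152 and 314 for Δclr-1, against 483 and 205 as deposited, and to 67 and 276 for Δclr-2, against 350 and 183. NCU04400 and NCU10107 were not called in either strain, with -0.01 ± 0.71 and -0.31 ± 0.70 in Δclr-1 and -0.24 ± 0.71 and -0.44 ± 0.70 in Δclr-2, with standard errors larger than the changes. With the library farthest from the rest of its group left out of each 4 h group, an alternative chosen after seeing the data, NCU10107 was lower in Δclr-1 (-1.41, limma adjusted p = 0.000111) and in Δclr-2 (-1.93, adjusted p = 1.79e-05), and NCU04400 was lower in Δclr-2 (-1.62, adjusted p = 0.000319). NCU05134 was then lower in both strains (-1.35 and -2.04), NCU05755 was higher in Δclr-1 (1.47), and neither NCU07036 nor NCU01400 was called. The conidial markers summed to 32004.9 to 42742.6 FPKM in Δclr-1, 33644.4 to 41200.2 FPKM in Δclr-2 and 11098.9 to 26316.2 FPKM in wild type on Avicel. Of the 12 markers, 2 were called higher in Δclr-1, against 5.84% of all genes, and 0 were called in Δclr-2. The part of the markers was not tested.

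Between Δclr-1 and Δclr-2 none of the 18 was called by limma, against 0.0242% of all genes higher and 0.0726% lower. Every adjusted p of the 18 was 1, and 111 of 8266 genes had an unadjusted p under 0.05. The spread behind these values was estimated over all 4 h groups, the scattered wild type libraries among them, without a term for the replicate number. With only these groups in the fit, or with the replicate block, 0 of the 18 were called as well. The fold changes lay between -0.63 ± 0.39 for NCU16363 and 0.85 ± 0.63 for ccg-13.

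By mean level over the 14 groups, the 18 genes did not share a peak. The highest group was wild type on Avicel for 4 genes, Δos-2Δclr-3 for 3, Δos-1Δclr-3 for 3, Δclr-3 at 10 h for 2, starved wild type at 4 h for 2, and 1 gene each for Δcre-1Δclr-3, Δclr-1, Pccg1-clr-2 and Δos-2. For 13 of the 18 the libraries of the highest group overlapped with those of the second. Starved Δclr-3 at 4 h was the lowest group for 5 genes. The ratio of the highest group mean to the lowest ran from 4.00 for NCU09267 to 641 for ccg-13.

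**Figure D5:**
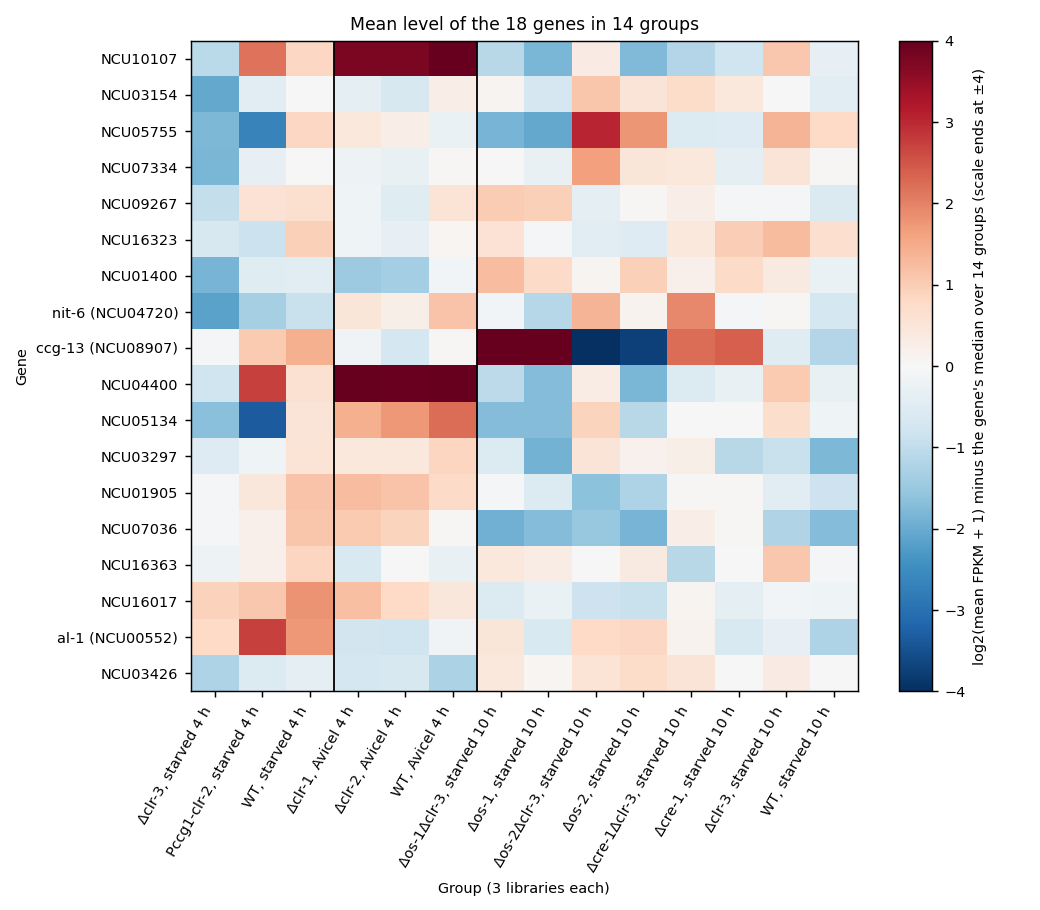
Mean level of the 18 genes in 14 groups, as log2(mean FPKM + 1) minus the median of the gene over the groups, with colours ending at 4 in either direction. Starved Δclr-3 at 4 h lies above the median of the gene for al-1 and NCU16017 only, and the range over groups is widest for ccg-13, NCU04400, NCU10107 and NCU05755.

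Genes of nitrogen use were listed beside nit-6. Of 10 such genes, nit-6 alone was called on clr-3 loss in Δos-1 (1 higher, 0 lower) and in Δos-2 (1 higher, 0 lower), and in Δcre-1 there were 2 higher and 1 lower, with gln-2 (1.16 ± 0.07) higher beside nit-6 and nit-4 (-1.01 ± 0.09) lower. The list's median change was -0.05 in Δos-1, -0.27 in Δos-2 and -0.34 in Δcre-1, against the -0.18, -0.38 and -0.45 of all genes. Beside these calls and those of the carotenoid list below, 2.17% of all genes rose and 0.836% fell in Δos-1. In Δos-2 3.06% rose and 4.57% fell, and in Δcre-1 3.07% rose and 11.1% fell. In the rule contrasts 4 of the 10 nitrogen genes were at least 1 lower in Δclr-3 at 4 h, as were 8.52% of all genes. The rule puts nit-6 among these 4, so the count is in part set by the choice of the genes. At 10 h 0 of the 10 were past 1 in either direction. The carotenoid list, 5 genes chosen after the data were seen, had al-1 alone called on clr-3 loss in Δos-1 (1 higher), 2 lower in Δos-2 (al-2 and al-3) and 0 in Δcre-1. In starved mycelium 3 of its 5 genes (al-1, al-2 and cao-2) were at least 1 lower in Δclr-3 at 4 h by the medians, as were 8.52% of all genes. At 10 h 0 of the 5 were past 1 in either direction. The rule itself puts al-1 among the 3 lower genes, and the list was drawn up with al-1 known as a member. All 3 overlapped between the strains at 4 h, with al-2 at 74.0 to 109 FPKM in Δclr-3 and 94.6 to 669 FPKM in wild type, and cao-2 at 43.2 to 50.1 FPKM in Δclr-3 and 46.4 to 198 FPKM in wild type. The other two were not lower by their means, with ylo-1 at 284 ± 39.6 FPKM in Δclr-3 and 151 ± 6.33 FPKM in wild type, and al-3 at 230.1 ± 20.5 FPKM in Δclr-3 and 216 ± 93.5 FPKM in wild type.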

How the data were processed

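RNA from 42 cultures was sequenced and the authors deposited gene FPKM values for each library, per the file headers in the layout of Cufflinks. HISAT2 2.0.5 and Cufflinks 2.2.1 are named in the submitters' processing notes, which give no settings or roles here. Read counts were not used, so depth was inferred from the deposited FPKM bounds, and precision rests on 3 replicates a group. Of 9758 genes, 12 without an OK status in every library were left out.

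The deposited FPKM values were turned into log2(FPKM + 1) and fitted with limma 3.58.1 (lmFit, contrasts and eBayes with trend) in R 4.3.3. The 4 h and 10 h libraries were fitted apart, over genes whose mean FPKM in the fit was 1 or more, p-values were adjusted over all genes by Benjamini-Hochberg, and a deleted gene was left out of its own strain's comparisons. A call needed an adjusted p under 0.05 and a log2 fold change of at least 1. The p-values measure the spread between libraries that the labels call biological replicates. None of the 12 tested comparisons has a library of the rule on either side. The rule libraries were in the fits, however, and share in the estimate of spread and in the filter on mean FPKM. With only the groups compared in the fit, 2 calls were lost. The steps were tested on simulated data. The alternatives were a pseudocount of 0.1, no filter, median-ratio rescaling, the deposited whole-series table (also FPKM), the replicate number as a block, only the groups compared, and each library left out; one leaving out the farthest library of each 4 h group was chosen after seeing the data.

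All 18 genes were named by the rule that a set of 25 or fewer is named whole. The genes and gene lists were chosen with earlier results of these data known. In Δclr-1 against wild type on Avicel, the deviations of same-numbered replicates, by the titles, all correlated above 0.1 (0.385, 0.212 and 0.395). So did those in Δclr-1 against Δclr-2 (0.516, 0.288 and 0.444). No other direct comparison of groups met this limit. The reported fits left this pairing out in every comparison, and it entered only in the alternative with the replicate number as a block. Promoter and protein sequences were not analysed here.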

Additional observations from a re-analysis of the deposited data

Results flagged for a closer look

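The effect of clr-3 loss at 10 h differed between mutant backgrounds for 9 of the 18 genes in at least 1 of 3 differences, by limma's test of the difference itself, as it did for 14.9% of 8010 genes. The effect in Δos-2 minus that in Δcre-1 was 2.48 for NCU10107, 2.39 for NCU04400, 1.96 for NCU05134, 1.38 for NCU05755 and -1.05 for NCU03297. The effect in Δos-1 minus that in Δos-2 was -1.98 for NCU05134, -1.45 for NCU04400, -1.41 for NCU10107, -1.11 for NCU05755, 1.35 for NCU01400, 1.15 for al-1 and 1.01 for NCU03297. The effect in Δos-1 minus that in Δcre-1 was 1.26 for NCU16363, 1.18 for NCU16323, 1.08 for NCU01400 and 1.07 for NCU10107, and all 4 of these calls were lost under median-ratio rescaling (0.96, 0.85, 0.74 and 0.75). The 4 genes NCU10107, NCU04400, NCU05134 and NCU05755 had the larger effect in Δos-2 in both differences that involve it, and these 8 calls held with any single library left out and under rescaling.

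Single libraries ended some of the other calls. For NCU03297 the difference between Δos-1 and Δos-2 was lost without Δos-1Δclr-3 replicate 2 (0.87), Δos-1 replicate 1 (0.96), Δos-2Δclr-3 replicate 1 (0.93) or 2 (0.94), or Δos-2 replicate 3 (0.98). Its difference between Δos-2 and Δcre-1 was lost without Δos-2Δclr-3 replicate 1 (-0.97) or 2 (-0.97), Δcre-1Δclr-3 replicate 2 (-0.96), or Δcre-1 replicate 1 (-0.97) or 3 (-0.96). The difference for al-1 was lost without Δos-1Δclr-3 replicate 2 (0.95). Between Δos-1 and Δcre-1, NCU01400 was lost without Δos-1 replicate 1 (0.91) or Δcre-1Δclr-3 replicate 3 (0.99), and NCU16323 without Δcre-1 replicate 3 (0.86). NCU10107 was lost there without Δos-1Δclr-3 replicate 2 (0.94) or 3 (0.95), Δcre-1Δclr-3 replicate 2 (0.99) or 3 (0.96), or Δcre-1 replicate 1 (0.97).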

How the results depend on the processing

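Of 55 calls of a gene in a comparison, 39 held under every alternative, 40 with any single library left out, and 0 changed direction. Median-ratio rescaling ended 10 calls and 10 were lost with the whole-series table. Fitting only the groups compared ended 2, no filter 1, the replicate block 1 and a pseudocount of 0.1 none (0). The cause was not tested. The rule itself gave 34 genes after median-ratio rescaling and 35 from the whole-series table (13 of the 18 in each), 9 with a minimum of 0.5 at 10 h, and 16 to 23 as single libraries were left out. The 4 h difference of al-1 ranged from -1.43 to 0.14, the second without starved wild type replicate 3. For clr-3 loss in Δos-1, the 3 calls became 1 to 3 with a library left out. In Δcre-1 the count was 5 in place of 3 after rescaling and 5 with the whole-series table, in both without NCU16363 and with al-1, NCU07334 and NCU03426 added, and 2 to 3 with a library left out. For Δclr-1 on Avicel, with 2 calls, NCU07036 was the 1 gene called with no filter and the 1 called with the replicate block. Both calls were lost after rescaling and with the whole-series table, where the 1 gene called was another, NCU09267. The count was 0 with only the groups compared, and 0 to 2 with a library left out, with 0 without wild type replicate 1, Δclr-1 replicate 2 or Δclr-1 replicate 3. The block changed no other count of these genes. For Δclr-2 the count was 2 in place of 1 after rescaling and 2 with the whole-series table (nit-6 added), 4 with the farthest library of each group left out, and 0 to 4 with a library left out. For the effect in Δos-1 minus that in Δcre-1 all 4 higher calls were lost after rescaling and with the whole-series table, where 2 genes (nit-6 and NCU16017) and 1 gene (nit-6) were called lower, and the count was 2 to 5 with a library left out, with 2 without Δcre-1Δclr-3 replicate 3. The shallowest library, wild type on Avicel replicate 1, had 5.17 M implied fragments, and it is among those whose removal ended the Avicel calls.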

Other observations

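Genes listed for other processes were counted on clr-3 loss at 10 h, where 2.17% of all genes rose and 0.836% fell in Δos-1, 3.06% rose and 4.57% fell in Δos-2, and 3.07% rose and 11.1% fell in Δcre-1. The amino acid, ribosomal, respiratory and acetate lists were drawn by the prefix of the gene symbol, so they can hold genes with another role. Of 60 genes with amino acid prefixes such as arg- and cys-, 0 were called in Δos-1, 3 fell in Δos-2 and 9 fell in Δcre-1. None (0) of 7 genes with the prefix crp-, listed for cytosolic ribosomal proteins, was called in any background by limma. Nor was any of 13 genes with the prefixes cyt-, cox- and atp-, listed for the respiratory chain. Of 6 genes of acetate use and gluconeogenesis, 1 rose in Δos-1, 2 rose and 1 fell in Δos-2, and 1 rose in Δcre-1, with acu-6 among those called in each. Of the carbon regulators tested, 2 of 6 rose in Δos-1 (clr-2 and cre-1), 2 of 6 in Δos-2 (clr-2 and xlr-1) and 1 of 5 in Δcre-1 (clr-2). Of the osmosensing genes 0 were called in Δos-1 and Δos-2, and os-2 fell in Δcre-1.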
